A study of Mus musculus with 12 samples.

Results

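The keratins and the bile duct and progenitor markers were followed in cultured mouse hepatocytes as 10 genes chosen by name: Krt8, Krt18, Krt19, Krt7, Krt23, Epcam, Spp1, Sox9, Sox4 and Ehf, out of 48440 genes in the counts table. All 10 were found and all 10 were among the 14488 genes that passed the filter on low counts, although Krt7 passed only through the Control libraries, where it was higher, so its calls had to favour Control and are not support for a difference. Primary hepatocytes were isolated by collagenase perfusion from Mettl3 cKO mice, which carry loxP-flanked (floxed) Mettl3 alleles and Cre driven by the albumin enhancer and promoter, and from Control mice, labelled WT. Both genotypes were on the C57BL/6J background. The cells of both genotypes were cultured overnight and then exposed to 5 µM actinomycin D, an inhibitor of transcription, for 0, 2 or 6 h, with 2 libraries in each of the 6 groups. No source used here gives the age of the mice or says whether the 2 libraries of a group came from separate animals. Each p-value thus covers library-to-library spread, which may be technical. Mettl3 is the catalytic subunit of the complex that writes m6A, a methyl mark on adenosines of mRNA, and the design asks how its loss changes transcript levels and their persistence once transcription is blocked.

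Keratins form intermediate filaments as pairs of a type I and a type II chain, and Krt8 with Krt18 is the pair of the hepatocyte, whereas Krt7 and Krt19 mark the biliary epithelium of the bile ducts. Hepatic progenitors and injured hepatocytes are known to take on features of the duct, among them the adhesion molecule Epcam, the secreted phosphoprotein osteopontin (Spp1) and the transcription factor Sox9. Sox4 acts beside Sox9 in bile duct development, Krt23 is a type I keratin induced in injured and tumorous liver, and Ehf is an epithelial transcription factor of the ETS family.

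The promoters of 7 of the 10 genes were taken from RefSeq (GRCm38.p6), and 3 are shown because they belong to the most abundant pair and to Spp1, which was lower in Mettl3 cKO at all 3 times. In mm10 (GRCm38, Gencode M21), Krt8 lies on chr15:101996698-102004482, Krt18 on chr15:102028180-102032027 and Spp1 on chr5:104435118-104441050. Krt7 is on chromosome 15 too, Krt19, Krt23 and Sox9 are on chromosome 11, and Epcam, Sox4 and Ehf on chromosomes 17, 13 and 2. Krt8 and Krt18 are transcribed away from each other, with 23698 bases between their annotated starts. Each sequence is the 250 bases before the RefSeq start, read in the direction of transcription. For Krt8 and Krt18 this start lies inside the Gencode gene, so these windows reach past the Gencode start. Capitals mark matches on either strand to AGGAAG, a core that ETS factors bind, or to TATAAA.
Krt8 (chr15:102004343-102004592, minus strand): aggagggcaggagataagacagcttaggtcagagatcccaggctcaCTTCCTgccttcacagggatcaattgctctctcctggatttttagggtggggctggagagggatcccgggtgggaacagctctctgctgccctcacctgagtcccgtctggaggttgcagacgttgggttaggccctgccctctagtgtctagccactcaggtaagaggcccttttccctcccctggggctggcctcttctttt
Krt18 (chr15:102027966-102028215, plus strand): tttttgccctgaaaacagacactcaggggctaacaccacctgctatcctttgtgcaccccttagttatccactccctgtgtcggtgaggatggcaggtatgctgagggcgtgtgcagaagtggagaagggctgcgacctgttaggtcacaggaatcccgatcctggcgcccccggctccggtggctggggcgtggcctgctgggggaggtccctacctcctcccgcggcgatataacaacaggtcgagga
Spp1 (the first of 2 windows, chr5:104434861-104435110, plus strand): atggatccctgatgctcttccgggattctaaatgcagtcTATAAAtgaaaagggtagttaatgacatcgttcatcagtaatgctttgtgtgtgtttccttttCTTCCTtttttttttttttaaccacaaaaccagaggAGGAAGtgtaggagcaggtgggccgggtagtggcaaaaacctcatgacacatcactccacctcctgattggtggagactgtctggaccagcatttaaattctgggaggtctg
AGGAAG was found in the windows of Krt8, Krt7, Spp1 and Sox4, and in 29.5% of all 32851 promoter windows of this length. TATAAA was found in the window of Spp1 and in 12.4% of all windows. An AP-1 motif (TGANTCA, 6.75% of all windows) and a SOX motif (AACAAT, 9.42% of all windows) were searched on both strands as well and were in no window of these genes.

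Library totals ran from 16952084 to 20914516 reads. The 14 hepatocyte markers, none of them at 0, summed to 51540 to 54914 CPM in Mettl3 cKO and 55054 to 56469 CPM in Control at 0 h. Of these markers 4 were called higher and 9 lower (29.6% and 25.5% of all genes tested), with a median difference of −0.59. Blood markers summed to 1.42 to 5.43 CPM (reads scaled to the library total). Macrophage markers were higher in the Mettl3 cKO libraries, with sums of 700 to 726 CPM in Mettl3 cKO and 400.5 to 408 CPM in Control at 0 h. At that time 15 of 16 were called higher, against 29.6% of all genes tested. Mettl3 itself had 22.6 and 23.2 CPM in Mettl3 cKO and 33.4 and 28.5 CPM in Control at 0 h, 24.0 and 25.8 CPM in Mettl3 cKO and 24.2 and 25.5 CPM in Control at 2 h, and at 6 h it had 19.4 and 24.2 CPM in Mettl3 cKO and 15.0 and 13.7 CPM in Control. Reads from exons outside the deletion are counted too, which means that these values cannot check the genotype directly, and genotypes are given here as labelled. The Control 6 h libraries stood apart: Xist had 972 and 831 CPM in them and at most 0.354 CPM in the other 10 libraries, and Ddx3y, on the Y chromosome, had 0 and 1 reads in them and at least 137 CPM elsewhere. Each genotype difference at 6 h compares libraries of different sex as well as genotype, and each Control step to 6 h compares different sex as well as time, so the share of sex in these cannot be told apart. The steps within Mettl3 cKO are not touched by this.

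**Figure D1:**
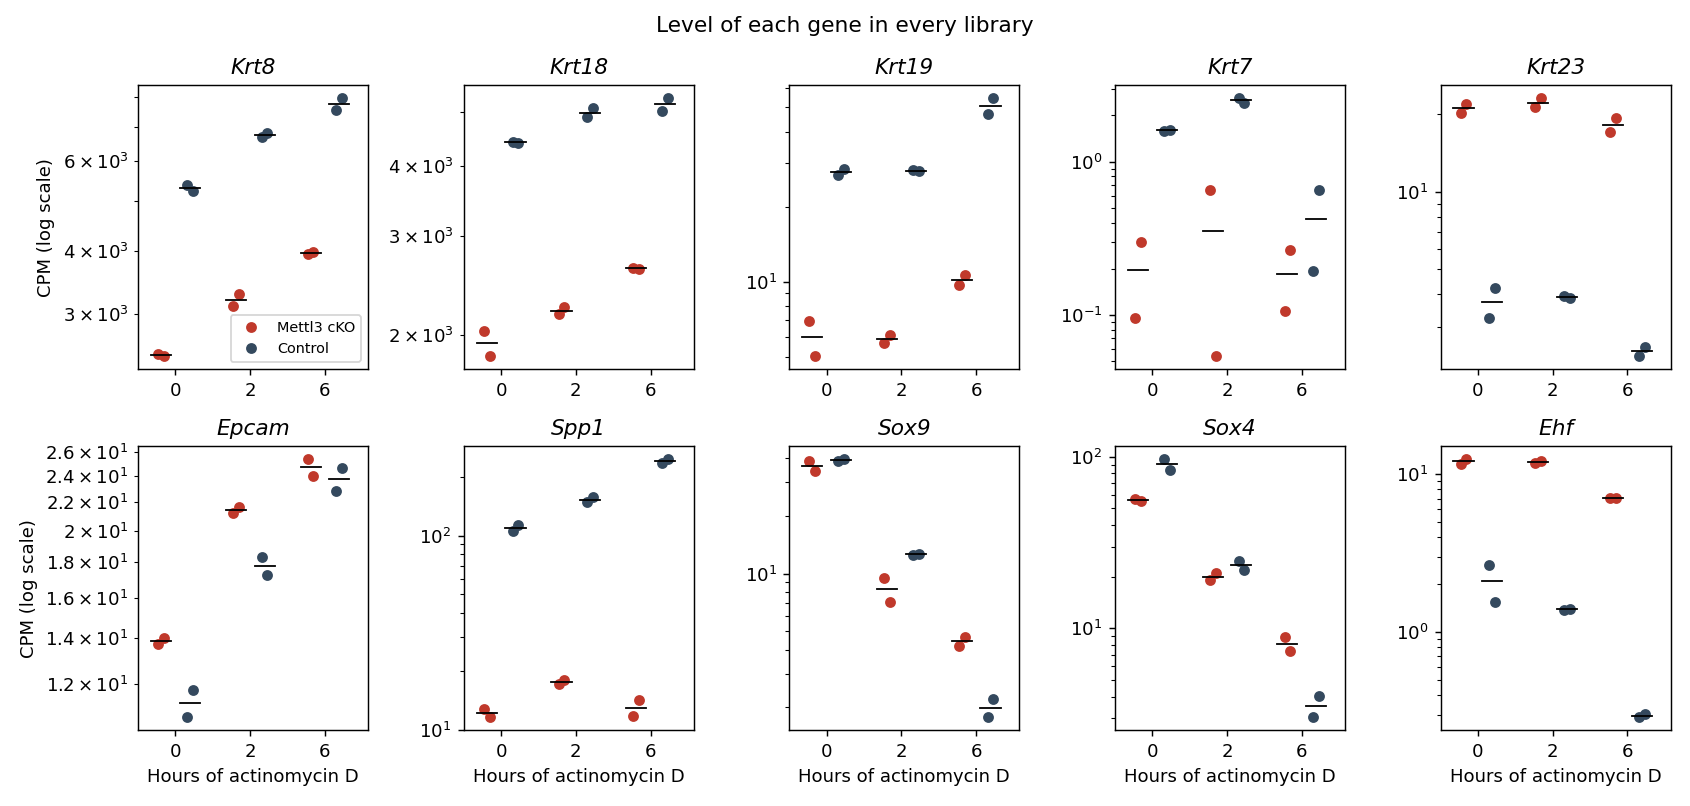
Level of each of the 10 genes in CPM, on a log scale, against hours of actinomycin D. Each point is 1 library, the bar is the mean of the 2 libraries of a group, and Mettl3 cKO stands left of Control at each time; Krt8, Krt18, Krt19 and Spp1 lie lower in Mettl3 cKO at all 3 times, and Krt23 and Ehf higher.

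Before actinomycin D, 6 of the 10 genes were lower in Mettl3 cKO (Krt8, Krt18, Krt19, Krt7, Spp1 and Sox4) and 2 were higher (Krt23 and Ehf). Over all genes tested 25.5% were called lower and 29.6% higher at that time. The median log2 difference of the 10 was −0.93 and that of all genes 0.03. The 10 were chosen with earlier results of these data known, so their distance from these shares and this median is not independent support. Krt7 is part of this count and this median, although its call had to favour Control and adds no support. Differences between genotypes are given as Mettl3 cKO minus Control on the log2 scale with SE, from edgeR's quasi-likelihood test, and a gene was called at an adjusted p under 0.05 (Benjamini-Hochberg over 14488 genes).

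Krt8, the type II keratin of hepatocytes, had 2506 and 2482 CPM in Mettl3 cKO and 5383 and 5247 CPM in Control at 0 h. Its partner Krt18 had 2036 and 1833 CPM in Mettl3 cKO and 4423 and 4401 CPM in Control. Both Mettl3 cKO libraries lay far below both Control libraries for either gene. The differences were −1.13 (SE 0.050, adjusted p = 1.48e-15) for Krt8 and −1.23 (SE 0.056, adjusted p = 2.48e-15) for Krt18. They were −1.19 and −1.29 at 2 h, and −1.26 for each gene at 6 h. Together the pair held 0.432% to 0.454% of all reads in Mettl3 cKO and 0.965% to 0.981% in Control at 0 h, and 0.658% to 0.659% in Mettl3 cKO and 1.26% to 1.33% in Control at 6 h. The ratio of the pair was higher in both Mettl3 cKO libraries at 0 and 2 h, and the genotypes overlapped at 6 h, with no test made: there were 1.23 and 1.35 Krt8 reads for each Krt18 read in Mettl3 cKO and 1.22 and 1.19 in Control at 0 h, 1.43 and 1.46 in Mettl3 cKO and 1.37 and 1.34 in Control at 2 h, and 1.495 and 1.51 in Mettl3 cKO and 1.504 and 1.505 in Control at 6 h. A processed pseudogene, Krt8-ps, held 0.074% to 0.127% as many reads as Krt8, and an annotated gene on the opposite strand overlaps Krt8 exons, which counting without strand cannot tell apart. The same holds for Krt7 and Sox4. The gene over Sox4 had 0 reads in all libraries, and those over Krt8 and Krt7 are absent from the counts. Exons of Spp1 are overlapped on the same strand by Gm42793, with 4 reads over all libraries against 20859 for Spp1.

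Krt19, a type I keratin of the duct, fell to 6.93 and 5.02 CPM in Mettl3 cKO, against 26.7 and 28.3 CPM in Control at 0 h. Its difference was −2.24 (SE 0.13, adjusted p = 3.70e-13), −2.36 at 2 h and −2.61 at 6 h. For Krt18, the type I chain of the hepatocyte, the difference at 0 h was −1.23, and whether Krt19 and Krt18 differed in this was not tested. Krt19 reads were 0.274% to 0.341% of Krt18 reads in Mettl3 cKO and 0.604% to 0.643% in Control at 0 h. Krt7, the type II keratin of the duct, was near the limit of detection, with 2 and 6 reads in Mettl3 cKO and 27 and 28 reads in Control at 0 h. Its difference was −3.03 (SE 0.63, adjusted p = 2.59e-04) at 0 h and −2.93 (SE 0.54) at 2 h, where it had 12 and 1 reads in Mettl3 cKO and 49 and 43 in Control. Its size depended on single libraries: it was −2.44 without Mettl3 cKO 0 h replicate 1 and −3.99 without Mettl3 cKO 0 h replicate 2 at 0 h, and −5.49 without Mettl3 cKO 2 h replicate 1 and −2.05 without Mettl3 cKO 2 h replicate 2 at 2 h. At 6 h it had 2 and 5 reads in Mettl3 cKO and 4 and 13 in Control, the groups overlapped, and no call was made (−1.44, SE 0.83, adjusted p = 0.125). A call was made at 6 h without Control 6 h replicate 1 (−2.15, adjusted p = 0.0247).

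Spp1, the secreted ligand of integrins and Cd44, was lower in Mettl3 cKO at each time. It had 12.8 and 11.6 CPM in Mettl3 cKO and 105.9 and 113.9 CPM in Control at 0 h, a difference of −3.21 (SE 0.087, adjusted p = 1.25e-19). At 2 h it had 17.3 and 17.9 CPM in Mettl3 cKO and 148 and 157 CPM in Control, a difference of −3.23. At 6 h it had 11.8 and 14.2 CPM in Mettl3 cKO and 235 and 248 CPM in Control, a difference of −4.51 (SE 0.086, adjusted p = 1.93e-23). The mean in Mettl3 cKO was 0.111 times that in Control at 0 h and 0.0537 times at 6 h. Macrophages are known to make Spp1 as well, and the summed level of their 16 markers, none of them at 0, was higher in Mettl3 cKO while Spp1 was lower, with sums at 6 h of 489 to 513 CPM in Mettl3 cKO and 224 to 233 CPM in Control. Their part in the result was not tested. In bulk libraries, fewer cells of a type and less RNA per cell cannot be told apart. Of 9 genes for receptor chains of osteopontin, 6 were higher and 2 lower in Mettl3 cKO at 0 h (29.6% and 25.5% of all genes tested), 4 and 2 at 2 h (32.3% and 28.6%), and 5 and 2 at 6 h (35.4% and 33.1%). At 0 h Cd44 averaged 350.3 CPM in Mettl3 cKO and 165.5 CPM in Control, Itga5 233 CPM in Mettl3 cKO and 104 CPM in Control, and Itga9 22.9 CPM in Mettl3 cKO and 14.6 CPM in Control. Itgb1, the integrin beta chain with the highest CPM of these 4, was lower, at 971 CPM in Mettl3 cKO and 1143 CPM in Control (−0.28, adjusted p = 4.01e-05).

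Krt23 was higher in Mettl3 cKO, where Krt8, Krt18, Krt19 and Krt7 were lower at 0 h. It had 20.1 and 21.9 CPM in Mettl3 cKO and 3.24 and 4.25 CPM in Control at 0 h, with a difference of 2.44 (SE 0.15, adjusted p = 4.33e-13), then 2.38 at 2 h and 2.62 at 6 h. Ehf had 11.6 and 12.5 CPM in Mettl3 cKO and 2.65 and 1.55 CPM in Control at 0 h, with a difference of 2.48 (SE 0.19, adjusted p = 4.70e-11). Its difference was 2.98 at 2 h and 4.27 (SE 0.30) at 6 h, when Mettl3 cKO had 134 reads in each library and Control had 6 in each. The related ETS gene Elf3 averaged 18.1 CPM in Mettl3 cKO and 3.79 CPM in Control at 0 h, and 5.30 CPM in Mettl3 cKO and 0.0992 CPM in Control at 6 h. Besides Ehf, a chosen list of 6 ETS genes was counted, and the rest of the ETS family was not. Of this list 4 were tested: Elf1, Elf2, Elf4 and the Elf3 just given. Of these, 2 were higher at 0 h, 3 at 2 h and 4 at 6 h (29.6%, 32.3% and 35.4% of all genes tested), and 0 were called lower. These 4 genes are too few to set apart from that background.

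**Figure D2:**
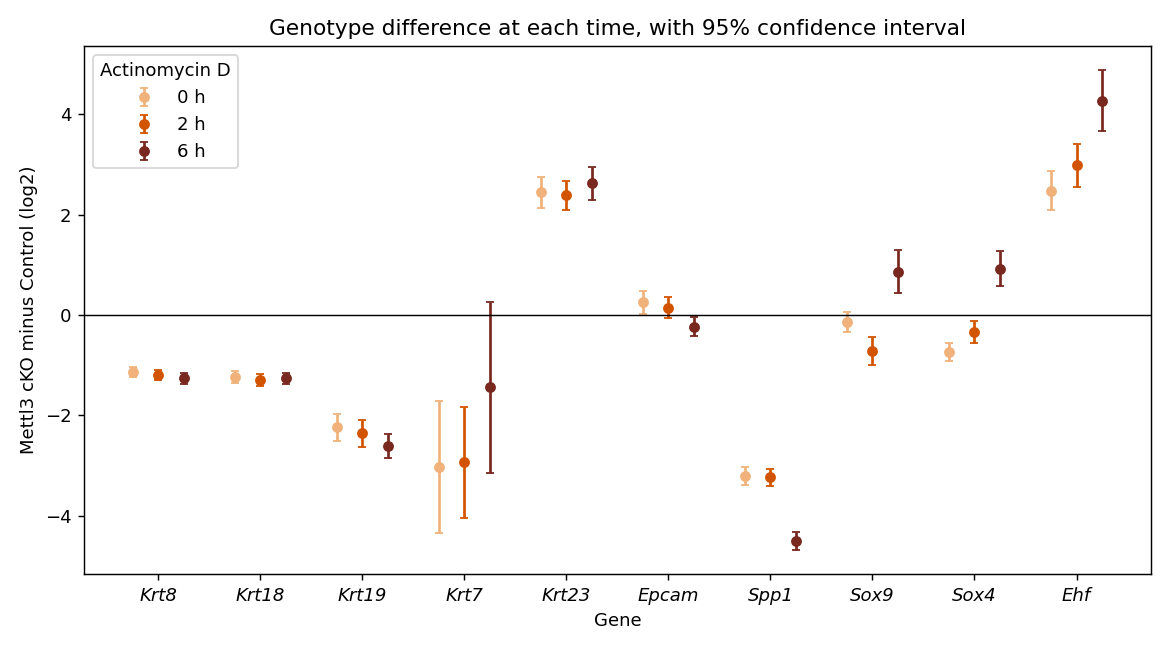
Genotype difference (Mettl3 cKO minus Control, log2, vertical axis) of each of the 10 genes (horizontal axis) at 0, 2 and 6 h, with 95% confidence intervals. Spp1 lies at −3.21, −3.23 and −4.51 and Ehf at 2.48, 2.98 and 4.27, and the intervals of Krt7 are wide.

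Epcam had 13.7 and 14.0 CPM in Mettl3 cKO and 10.7 and 11.8 CPM in Control at 0 h, with no call (0.26, SE 0.11, adjusted p = 0.0517). At 2 h the difference was 0.15 (adjusted p = 0.196). At 6 h it was −0.23 (adjusted p = 0.0311), with 25.4 and 24.05 CPM in Mettl3 cKO and 22.9 and 24.6 CPM in Control. With library sizes set to total counts it was 0.06 (adjusted p = 0.584), so no direction is drawn for Epcam at 6 h, and the call was also lost without Control 6 h replicate 2, Mettl3 cKO 6 h replicate 1 or Mettl3 cKO 6 h replicate 2 (adjusted p of 0.162, 0.0524 and 0.157). With total counts Epcam was called higher at 0 h (0.30, adjusted p = 0.0234) and 2 h (0.27, adjusted p = 0.0215). Sox9 had 38.9 and 34.4 CPM in Mettl3 cKO and 38.8 and 39.7 CPM in Control at 0 h, a difference of −0.14 (adjusted p = 0.257). It was lower in Mettl3 cKO at 2 h (−0.72, adjusted p = 6.43e-05) and higher at 6 h (0.86, adjusted p = 7.90e-04), with 4.17 and 4.68 CPM in Mettl3 cKO and 1.78 and 2.21 CPM in Control at 6 h. Sox4 had 56.8 and 55.2 CPM in Mettl3 cKO and 97.3 and 84.0 CPM in Control at 0 h. Its difference was −0.74 (adjusted p = 1.04e-07) at 0 h, −0.34 (adjusted p = 0.00825) at 2 h and 0.92 (adjusted p = 2.86e-05) at 6 h. The 2 h call of Sox4 was lost without Control 2 h replicate 1 (−0.25, adjusted p = 0.123), and likewise when Mettl3 cKO 2 h replicate 1 was left out (−0.28, adjusted p = 0.0858) and with total counts (−0.23, adjusted p = 0.0798). In all, 2 of the 10 were higher and 7 lower at 2 h (32.3% and 28.6% of all genes tested), and 4 were higher and 5 lower at 6 h (35.4% and 33.1% of all genes tested). The lower genes at 2 h include Krt7, whose call had to favour Control. Those at 6 h include Epcam, for which no direction is drawn.

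Levels of different genes were compared per kilobase of exon, using Gencode M21 exon lengths. Krt18 (1346 ± 99.9 CPM per kb in Mettl3 cKO, 3070.3 ± 10.5 in Control; SD, n = 2) and Krt8 (1274 ± 8.46 in Mettl3 cKO, 2714 ± 49.4 in Control) stood far above the rest at 0 h. In Mettl3 cKO they were followed by Krt23, Sox4, Sox9, Spp1, Epcam, Krt19, Ehf and Krt7, and in Control by Spp1, Sox4, Krt19, Sox9, Epcam, Krt23, Ehf and Krt7. Spp1 ranked 6 in Mettl3 cKO (7.39 ± 0.505 CPM per kb) and 3 in Control (66.7 ± 3.42), and Krt23 ranked 3 in Mettl3 cKO (13.4 ± 0.838) and 8 in Control (2.39 ± 0.453). At 0 h the means less and plus 1 SD of neighbours in this order overlapped for 1 pair, Krt18 and Krt8 in Mettl3 cKO.

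After actinomycin D the genes fell into groups by how their share of the reads changed. CPM is a share of the RNA that is left, so a transcript that declines more slowly than the rest goes up. Krt8 rose in Mettl3 cKO to 128% of its 0 h mean after 2 h and to 159% after 6 h, and in Control to 127% and 146%. Krt18 rose to 114% and 136% in Mettl3 cKO and to 113% and 117% in Control, Epcam to 155% and 179% in Mettl3 cKO and to 158% and 211% in Control. With total counts, the 6 h minus 2 h steps of Krt18 in Control (0.05, adjusted p = 0.409) and of Epcam in Mettl3 cKO (0.21, adjusted p = 0.0812) did not pass. With TMM library sizes both passed, at 0.38 (adjusted p = 1.62e-06) for Krt18 in Control and 0.37 (adjusted p = 0.00274) for Epcam in Mettl3 cKO. The 0 to 2 h rise of Krt18 was lost without Mettl3 cKO 0 h replicate 2 in Mettl3 cKO (0.12, adjusted p = 0.0725) and without Control 2 h replicate 2 in Control (0.15, adjusted p = 0.0589). Krt19 was near its start at 2 h and passed the test upward only in the later step, by 0.79 in Mettl3 cKO (adjusted p = 1.58e-04) and 0.86 in Control (adjusted p = 1.03e-07).

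**Figure D3:**
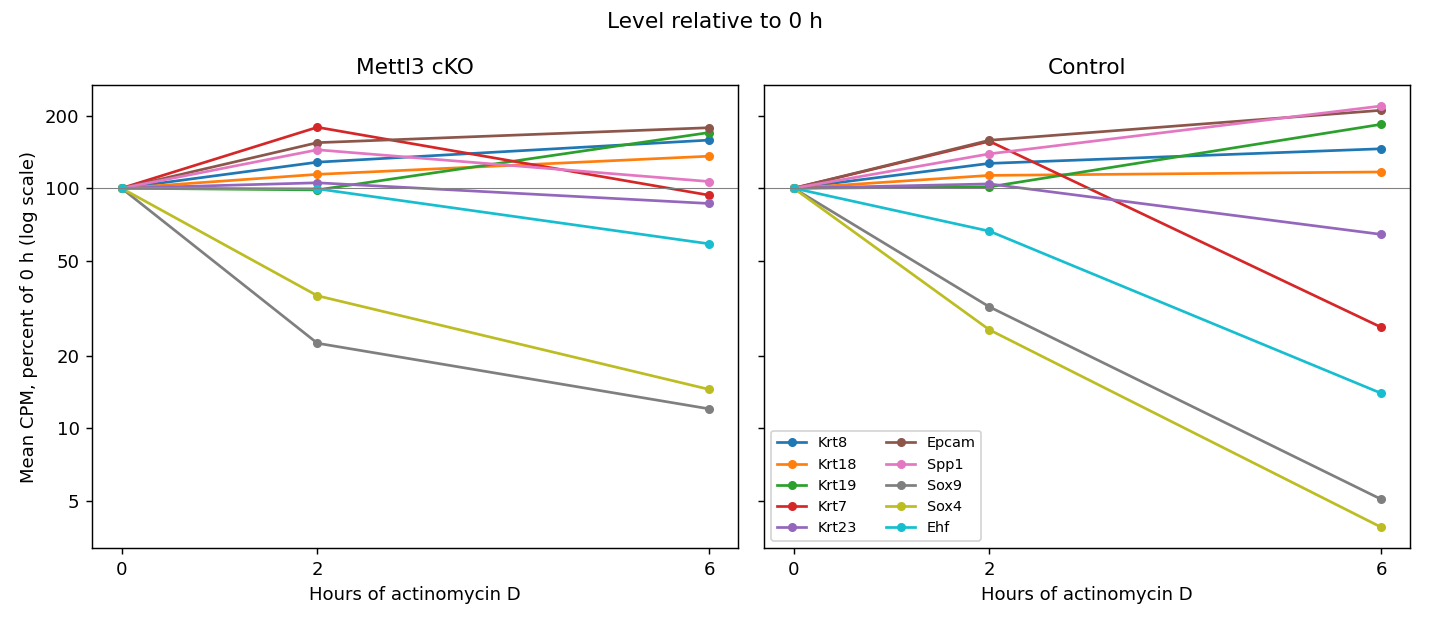
Mean CPM as a percent of 0 h (log scale) against hours of actinomycin D, Mettl3 cKO on the left and Control on the right, 1 line for each gene (mean of 2 libraries). Sox9 and Sox4 are lowest at 6 h, at 12.1% and 14.5% in Mettl3 cKO and 5.07% and 3.88% in Control.

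Sox9 and Sox4 fell in both genotypes, and the Control values at 6 h again come from libraries of the other sex. Sox9 fell in Mettl3 cKO to 22.6% of its start after 2 h and to 12.1% after 6 h, and in Control to 32.1% and 5.07%. Sox4 fell to 35.7% and 14.5% in Mettl3 cKO and to 25.7% and 3.88% in Control. From 0 to 2 h, 4 of the 10 genes rose and 2 fell in Mettl3 cKO (12% and 29.2% of all genes), and 4 rose and 2 fell in Control (12.9% and 36.3%). They were Krt8, Krt18, Epcam and Spp1 upward and Sox9 and Sox4 downward in either genotype. From 2 to 6 h, 3 rose and 5 fell in Mettl3 cKO (8.24% and 33.0%), and 4 rose and 5 fell in Control (9.83% and 48.4%). The genes that fell in Control include Krt7, which passed the filter only through Control libraries, so its fall adds no support. Ehf fell by 0.76 in Mettl3 cKO (adjusted p = 3.26e-04) and by 2.22 in Control (adjusted p = 6.19e-05) in that step. Krt7 fell by 2.57 in Control (adjusted p = 1.64e-04), with −1.93 without Control 6 h replicate 1 and −3.66 without Control 6 h replicate 2. These Control values compare libraries of different sex. The fall of Krt23 in that step, by 0.29 in Mettl3 cKO (adjusted p = 0.0462) and 0.70 in Control (adjusted p = 0.00411), did not pass with TMM library sizes, where the values were −0.12 and −0.36. The scaling matters for these steps because the median of all genes was −0.17 in Mettl3 cKO and −0.39 in Control from 2 to 6 h with total counts, and −0.01 and −0.05 with TMM. With TMM, 2966 genes rose and 3137 fell in Mettl3 cKO, against 1194 and 4774 with total counts. In Control the TMM counts for this step were 3949 and 4622, and from 0 to 2 h they were 3089 risen and 3425 fallen in Mettl3 cKO and 3821 and 4089 in Control. For the genotype differences, total counts moved the median of all genes to 0.15 at 2 h and 0.32 at 6 h, and the calls at 6 h were then 6723 higher and 2873 lower, against 5135 and 4797 with TMM.

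The slope over time (log2 CPM per hour, total counts) differed between genotypes for 3 of the 10 genes over 0 to 6 h, of which 2 were higher and 1 was lower in Mettl3 cKO, against 24.3% and 2.57% of all genes tested. Spp1 had a slope of 0.00 (95% confidence interval −0.07 to 0.07) in Mettl3 cKO and 0.19 (0.13 to 0.24) in Control, a difference of −0.19 (SE 0.042, adjusted p = 0.00421). The straight line hides a rise and a fall of Spp1 in Mettl3 cKO. The step was 0.53 from 0 to 2 h (adjusted p = 1.45e-04) and −0.44 from 2 to 6 h (adjusted p = 0.00103). Sox4 had a slope of −0.45 in Mettl3 cKO and −0.78 in Control, a difference of 0.33 (SE 0.063, adjusted p = 0.00171). Ehf had a slope of −0.14 in Mettl3 cKO and −0.46 in Control, a difference of 0.32 (SE 0.069, adjusted p = 0.00397). These slopes rest on the Control 6 h libraries. With TMM, 2359 genes had a higher and 1578 a lower slope in Mettl3 cKO over 0 to 6 h, and 1493 and 974 over 0 and 2 h. Over 0 and 2 h alone, 1 gene was higher and 1 lower (13.5% and 1.59% of all genes): Sox4 again (0.23, adjusted p = 0.00986), and Sox9 (−0.25, adjusted p = 0.0345), with slopes of −1.07 in Mettl3 cKO and −0.82 in Control. Spp1 (0.03, adjusted p = 0.840) and Ehf (0.29, adjusted p = 0.275) did not pass over 0 and 2 h. The call of Sox4 over 0 and 2 h was lost without Control 0 h replicate 1, Control 2 h replicate 2 or Mettl3 cKO 2 h replicate 2 (adjusted p of 0.0679, 0.0909 and 0.0791). That of Sox9 was lost without Mettl3 cKO 0 h replicate 1 (0.131), Mettl3 cKO 2 h replicate 2 (0.317) or any 1 of the 4 Control libraries of those times (0.0641 to 0.0985).

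Of 22 other genes of the duct and of progenitors, 17 were tested at 0 h, with a median of 0.03. In Mettl3 cKO 5 were higher and 5 lower (29.6% and 25.5% of all genes tested). The 4 named by rule did not move one way. Afp, the fetal albumin-like serum protein, averaged 680 CPM in Mettl3 cKO and 43.3 CPM in Control (3.93, SE 0.059). Cldn4, a tight junction claudin, averaged 544 CPM in Mettl3 cKO and 349 CPM in Control, and St14, a membrane serine protease, 11.3 CPM in Mettl3 cKO and 5.14 CPM in Control. Pkhd1, the gene of fibrocystin, which sits on the cilium of duct cells, averaged 7.27 CPM in Mettl3 cKO and 14.4 CPM in Control. The balance of the list at 6 h was 6 higher and 5 lower (35.4% and 33.1% of all genes tested).

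**Figure D4:**
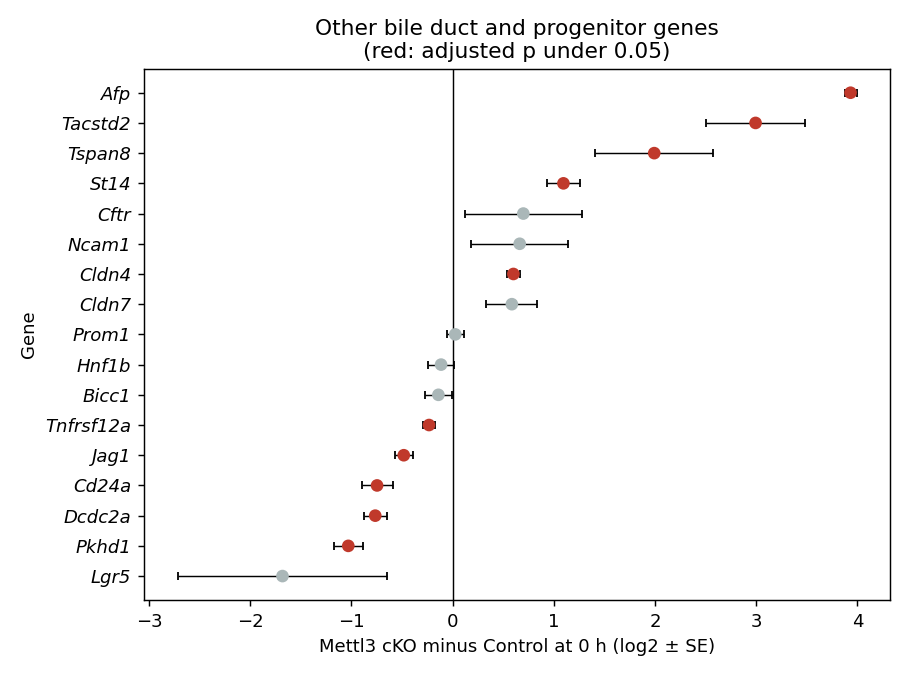
Mettl3 cKO minus Control at 0 h (log2, horizontal axis, bars are SE) for the 17 tested genes of the list (vertical axis). Red points passed at an adjusted p under 0.05, and Afp stands highest at 3.93.

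Proteins that anchor or join keratin filaments were listed together with Vim, itself a filament protein. Of this list 12 were tested, and 5 were higher and 5 lower at 0 h (29.6% and 25.5% of all genes tested). Dsc2, a desmosomal cadherin, averaged 209 CPM in Mettl3 cKO and 84.4 CPM in Control, and Plec, the cytolinker plectin, 889 CPM in Mettl3 cKO and 518 CPM in Control. Ppl, the cytolinker periplakin, averaged 7.26 CPM in Mettl3 cKO and 17.8 CPM in Control, and Vim, the filament protein of mesenchymal cells, 656 CPM in Mettl3 cKO and 944 CPM in Control. Of 45 other keratin genes, 5 were tested, with 2 higher and 2 lower at 0 h, against the same shares of all genes. Krt17 (1.09, adjusted p = 4.66e-04) and Krt80 (0.65, adjusted p = 0.0158) were the higher ones. Krt10 (−1.90, adjusted p = 1.53e-05) and Krt20 (−0.68, adjusted p = 2.07e-08) were the lower ones. Krt10 averaged 0.908 CPM in Mettl3 cKO and 3.29 CPM in Control. Krt20, another type I keratin, averaged 41.8 CPM in Mettl3 cKO and 65.2 CPM in Control. Of 17 other Sox genes 9 were tested, with 3 higher and 1 lower at 0 h (29.6% and 25.5% of all genes tested), and 5 of them fell from 0 to 2 h in Mettl3 cKO and 7 in Control (29.2% and 36.3% of all genes tested).

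The genes most like each of the 10 were sought among 8623 genes, by the root mean square difference of 6 centred group means of log2(CPM + 0.5). Itga3 was nearest to Krt18 (0.05), Hsd11b1 to Krt8 (0.06), Fgg to Epcam (0.07), Ckap4 to Krt23 (0.16), Pdzrn3 to Ehf (0.17), Mapk13 to Krt19 (0.18), Uroc1 to Spp1 (0.18) and Csrnp1 to Sox9 (0.18). Gclc was nearest to Krt7, at a wider distance (0.29). Krt7 averaged 0.184 to 0.353 CPM in the Mettl3 cKO groups and 0.422 CPM in Control at 6 h. These means lie below the 0.5 added, as does that of Ehf in Control at 6 h (0.295 CPM). The added 0.5 thus shapes the patterns of both genes. Sox9 was nearest to Sox4 (0.24).

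GGACT, a common form of the sequence in which m6A is written, was counted in the longest coding transcript of each gene in Gencode M21. Krt18 had 4 in 1437 bases (2.78 per kb) and Krt8 had 4 in 1958 bases (2.04 per kb), and the median of 13291 tested coding genes was 1.05 per kb. Spp1 had 1.99 per kb, Krt19 1.90, Sox4 1.88, Ehf 1.34, Epcam 0.980, Krt7 0.733, Sox9 0.726 and Krt23 0.639. The letters alone do not show that a site is methylated.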

How the data were processed

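RNA sequencing of 12 libraries was used. Per the labels and methods, the authors made poly(A) libraries without strand marking, used STAR 2.5.3a with mm10, discarded reads that did not map uniquely and counted exons of Gencode genes by featureCounts 2.0.1. No source used here names the Gencode release. The deposited values are whole-number counts per gene with no normalization.

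Genes were kept by filterByExpr (minimum count 10, minimum total 15). edgeR 4.0.16 in R 4.3.3 fitted all 12 libraries by the quasi-likelihood test, with TMM for genotype differences and total counts for time and slopes. Adjusted p-values are Benjamini-Hochberg over 14488 genes, threshold 0.05. The fits were tested on simulated data. Over 0 to 6 h the slope test recovered 57.9% of differences of 0.1 log2 per hour and 84.7% of 0.3. Over 0 and 2 h it recovered 25.8% of differences of 0.2 and 75.8% of 0.5. A slope difference that did not pass over 0 and 2 h is thus not shown to be absent. Alternatives were DESeq2 1.42.0, other library sizes, no filter, a replicate block, subsets of times and each library left out. No 2 libraries of a group were duplicates.

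The 10 genes and the lists were chosen with earlier results of these data known. All 10 are named. From each other list up to 4 genes, those with the smallest adjusted p at 0 h and a mean of at least 1 CPM, could be named. Genes of like pattern had a mean of at least 10 CPM. Lists of hepatocyte, macrophage, endothelial, stellate and fibroblast, and blood markers were also counted: at 0 h 7 of 14 endothelial markers were higher and 1 lower in Mettl3 cKO, and 5 of 14 stellate and fibroblast markers were higher and 1 lower. Of the hepatocyte markers 4 were higher and 9 lower, and of 4 tested blood markers 0 were called. Over all genes tested 29.6% were higher and 25.5% lower at 0 h.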

Additional observations from a re-analysis of the deposited data

Results flagged for a closer look

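The genotype difference in slope passed the test for 4 genes, taking both spans of time together. Over all genes tested, 24.3% had a higher and 2.57% a lower slope over 0 to 6 h, and 13.5% and 1.59% over 0 and 2 h. The 0 to 6 h slopes rest on the Control 6 h libraries, which are of the other sex. Both calls over 0 and 2 h were lost when certain single libraries were left out. Over 0 to 6 h it was −0.19 for Spp1, 0.33 for Sox4 and 0.32 for Ehf, and over 0 and 2 h it was −0.25 for Sox9 and 0.23 for Sox4, as log2 per hour, Mettl3 cKO minus Control. Groups of 2 libraries were too small to look for single libraries that stand apart.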

How the results depend on the processing

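The counts of the 10 genes called were within 1.5 times of their values in 299 of 310 recomputed counts. Over 0 to 6 h, 4 genes had a higher slope with the 2 and 6 h libraries only. Over 0 and 2 h, 0 were higher with the DESeq2 Wald test, and the counts ran from 0 to 1 higher and from 0 to 1 lower when 1 library was left out. Among 1195 recomputed values of single genes, 1 was reversed: Epcam at 6 h was 0.0594 with total counts. A further 33 lost the call and 16 gained it; the cause was not tested. The replicate numbers do not pair the libraries (15 correlations between groups, −0.10 to 0.03), and with a replicate block the 10 genes gave the same counts in each comparison, 2 higher and 6 lower at 0 h among them. The slope difference of Sox9 over 0 and 2 h ran from −0.26 to −0.16 among the fits without 1 library in which its call was lost. Depth limits Krt7, which had at most 12 reads in a Mettl3 cKO library.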
